A study of Mus musculus with 30 samples.

Results

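The first day of activation of naive CD8+ T cells was described from 6 arrays, 3 of naive cells before stimulation (TN alone 0 h) and 3 of naive cells stimulated by themselves (TN alone 18 h), over the 19106 autosomal genes among 19938 genes measured. These 6 arrays belong to a set of 30 in 10 groups of 3. Per the labels, the naive cells were sorted from spleens of adult female C57BL/6 mice 6 to 12 weeks old that carried the Ly5.1 marker and the Pmel-1 transgene, which gives the T cells 1 defined receptor. The 0 h cells were sorted and not stimulated. The 18 h cells were taken after stimulation in culture by antibodies against CD3 and against CD28 in the presence of IL-2, so the effects of the antibodies, of IL-2 and of time in culture cannot be told apart. All groups used here share the transgene, and the labels do not say whether cells of several mice were pooled. Memory cells (TMem alone, Ly5.2 Pmel-1) that had been made in vitro and received the same stimulation served as a comparison at 0 h and 18 h. Naive cells alone at 96 h served as a later time.

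A naive CD8+ T cell is small and resting, recirculates through lymphoid organs and survives on IL-7 and weak receptor signals. Engagement of the T cell receptor and CD28 starts calcium, RAS and NF-kB signalling, and within hours transcription of immediate early genes, cytokines and receptors. Over the first day the cell grows, makes ribosomes, takes up amino acids and glucose, and prepares to copy its DNA, and divisions follow. CD8+ T cells then acquire granzymes, interferon gamma and the transcription factors of effector cells.

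Values are log2 expression levels from Affymetrix gene arrays, so a difference of 1 is a factor of 2. They allow each gene to be compared between groups, and no gene's level is set against another's. Since arrays are scaled to each other, RNA per cell was not measured, and in a bulk sample fewer cells that carry a transcript and less of it per cell cannot be told apart. Markers of CD8+ T cells were present in all 6 samples. Cd8a read 12.12, 12.60 and 12.54 at 0 h and 12.26, 12.24 and 12.23 at 18 h, and its difference of -0.17 (SE 0.13) was not called. Cd44, which marks antigen-experienced cells, averaged 6.13 in naive and 8.73 in memory cells at 0 h. A gene is described as near background where its group mean was below the lower quartile of all genes, averaged over the arrays of that group (5.892 at 0 h and 5.885 at 18 h), and the true change from or to such a level may be larger. Markers of other cell types were partly above that level. Near background at both times were 6 of 7 NK cell markers, 3 of 9 B cell markers (Cd79a, Ms4a1 and Blnk), 4 of 12 myeloid markers (Lyz2, Adgre1, Mpeg1 and S100a8), 2 of 5 mast cell and basophil markers (Ms4a2 and Fcer1a), 0 of 4 CD4 T cell markers and 0 of 5 erythroid and platelet markers. In the B cell list Cd74 (1.36) rose and Cd79b (-1.72) fell, and in the CD4 list Izumo1r (0.57) and Ctla4 (0.71) rose. Kit (0.48) of the mast cell list rose, and Ppbp (-1.10) of the platelet list fell to a level near background. In the NK cell list Klri2 rose and 4 fell, and in the myeloid list Cd68 rose and 2 (Fcer1g and Tyrobp) fell. Of the NK cell list 0 fell without replicate 1 at 0 h, and of the myeloid list 0 rose and 0 fell. The part of such cells in the results was not tested. Cd4 read 6.43, 6.38 and 6.35 at 0 h and 6.19, 6.37 and 6.41 at 18 h, a difference that was not called.

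An unstimulated array stood apart. Over all 19938 genes, TN alone 0 h replicate 1 correlated with replicates 2 and 3 at Pearson r = 0.978 and 0.982. This compares with 0.995 between replicates 2 and 3 and 0.996 to 0.997 within the 18 h group. Replicate 1 lay 0.5 or more above the mean of the other 2 for 1400 autosomal genes and 0.5 or more below it for 1473. Replicates 2 and 3 differed by that much for 403. The mean of 72 mitochondrial ribosomal protein genes was 9.72, 9.15 and 9.23 in replicates 1 to 3 at 0 h and 9.19 to 9.22 at 18 h. The mean of the 7 NK cell markers was 5.58, 5.13 and 5.26 at 0 h and 5.04 to 5.17 at 18 h. List counts that moved by 1.5 times or more without this array, and printed medians that changed sign, are given below with both values. The comparisons that use this array were also fitted without it, and not all of those values are printed. Why it stood apart was not tested.

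Many genes changed between 0 h and 18 h. At an adjusted p under 0.05 (limma over all arrays, Benjamini-Hochberg over all genes), 6501 of 19106 autosomal genes (34.0%) were called, 3313 higher (17.3%) and 3188 lower (16.7%). Without replicate 1 at 0 h the counts were 3048 and 2710. The median difference over all autosomal genes was -0.02. Among large changes rises were more frequent. A rise of at least 1 was called for 683 genes (3.57%) and a fall of that size for 416 (2.18%), and a rise of at least 2 for 96 (0.502%) against a fall for 24 (0.126%). The groups did not overlap for 8130 genes (42.6%), and 7725 genes had an unadjusted p under 0.05. The arrays of a group are called biological repeats without saying whether they came from separate mice, so the spread between them may be technical. P-values and SEs use the spread within groups pooled over all groups, not that of the naive 0 h and 18 h arrays alone. An SE can therefore be larger or smaller than the replicates printed beside it imply. For Ccl3 the SE was 0.35, with SDs of 0.23 at 0 h and 0.08 at 18 h. For Ly96 the SE was 0.27, with SDs of 0.89 at 0 h and 0.18 at 18 h.

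**Figure D1:**
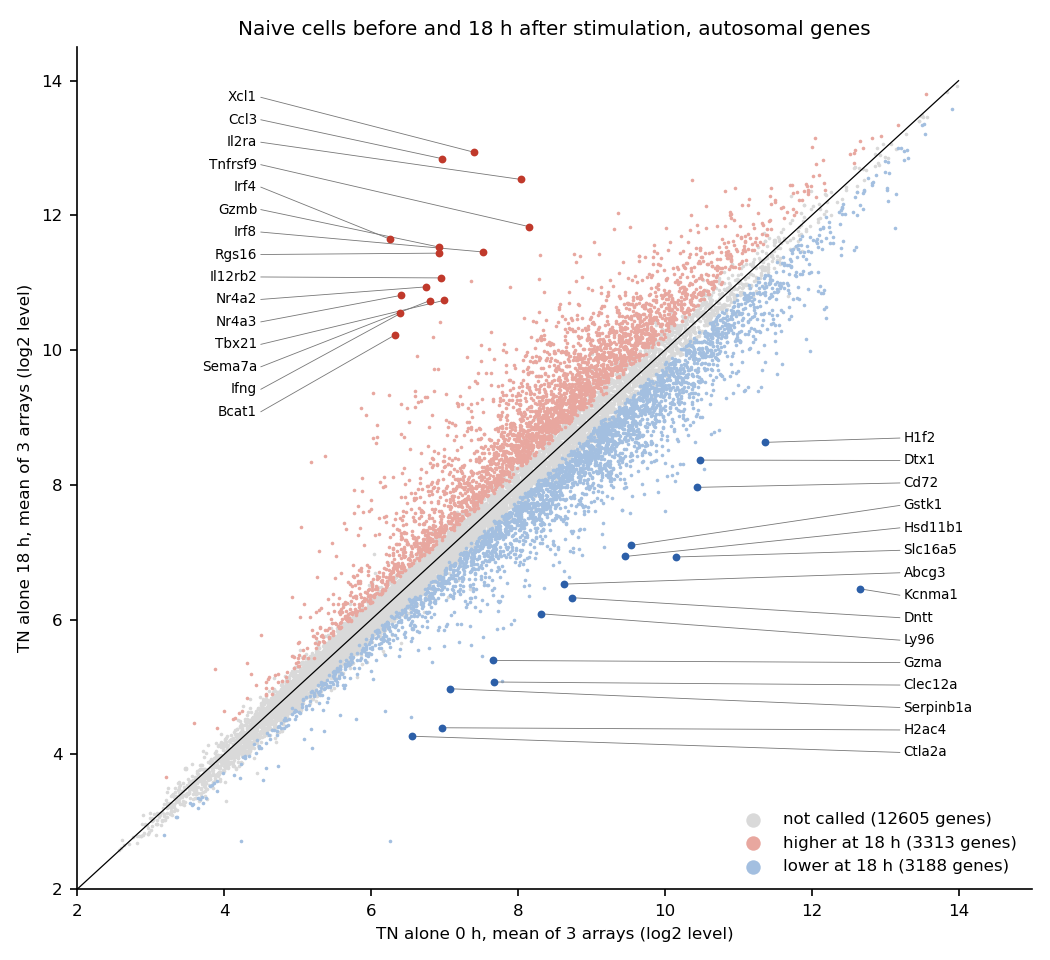
Mean log2 level of each autosomal gene in naive cells at 0 h (horizontal axis) and at 18 h (vertical axis), n = 3 arrays per group, with genes called higher in red, lower in blue and others in grey. The 15 largest named rises (Ccl3 5.88 to Tnfrsf9 3.69) lie far above the line of equal levels, and the 15 largest named falls reach -6.20 for the Kcnma1 row and -3.23 for Slc16a5.

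The largest rises were those of chemokines, receptors and transcription factors of activated CD8+ T cells. Ccl3, a chemokine that draws myeloid cells and T cells, read 6.74, 7.19 and 6.96 at 0 h and 12.76, 12.89 and 12.88 at 18 h. The groups lay far apart, a difference of 5.88 (SE 0.35) or 58.9-fold, with an adjusted p = 1.13e-13. Xcl1, the ligand of the receptor of cross-presenting dendritic cells, read 7.83, 7.18 and 7.19 at 0 h and 12.88, 12.95 and 12.99 at 18 h, a rise of 5.54 (SE 0.26). Irf4, a transcription factor whose level follows the strength of the receptor signal, read 6.10, 6.37 and 6.30 at 0 h and 11.58, 11.72 and 11.64 at 18 h, a rise of 5.39 (SE 0.12) with an adjusted p = 5.8e-23. The arrays of each group lay close together for Irf4, as the plot of single genes by array shows.

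Of the other 12 genes with the largest rises, Gzmb, the protease granzyme B that kills target cells, read 6.96, 6.74 and 7.10 at 0 h and 11.45, 11.58 and 11.56 at 18 h, a rise of 4.60 (SE 0.08). Il2ra, the high-affinity chain of the IL-2 receptor, read 8.05, 7.92 and 8.15 at 0 h and 12.49, 12.54 and 12.57 at 18 h, a rise of 4.49 (SE 0.08). Rgs16, which shortens G protein signals, rose by 4.52 (SE 0.21), and Sema7a, a membrane-bound semaphorin, by 3.93 (SE 0.11). None of these groups overlapped, as the choice of the named genes required. Bcat1, which transaminates branched-chain amino acids in the cytosol, read 6.54, 6.25 and 6.18 at 0 h and 10.29, 10.17 and 10.21 at 18 h, a rise of 3.90 (SE 0.17). The other 7, Nr4a3, Nr4a2, Ifng, Il12rb2, Irf8, Tbx21 and Tnfrsf9, are described with their groups.

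**Figure D2:**
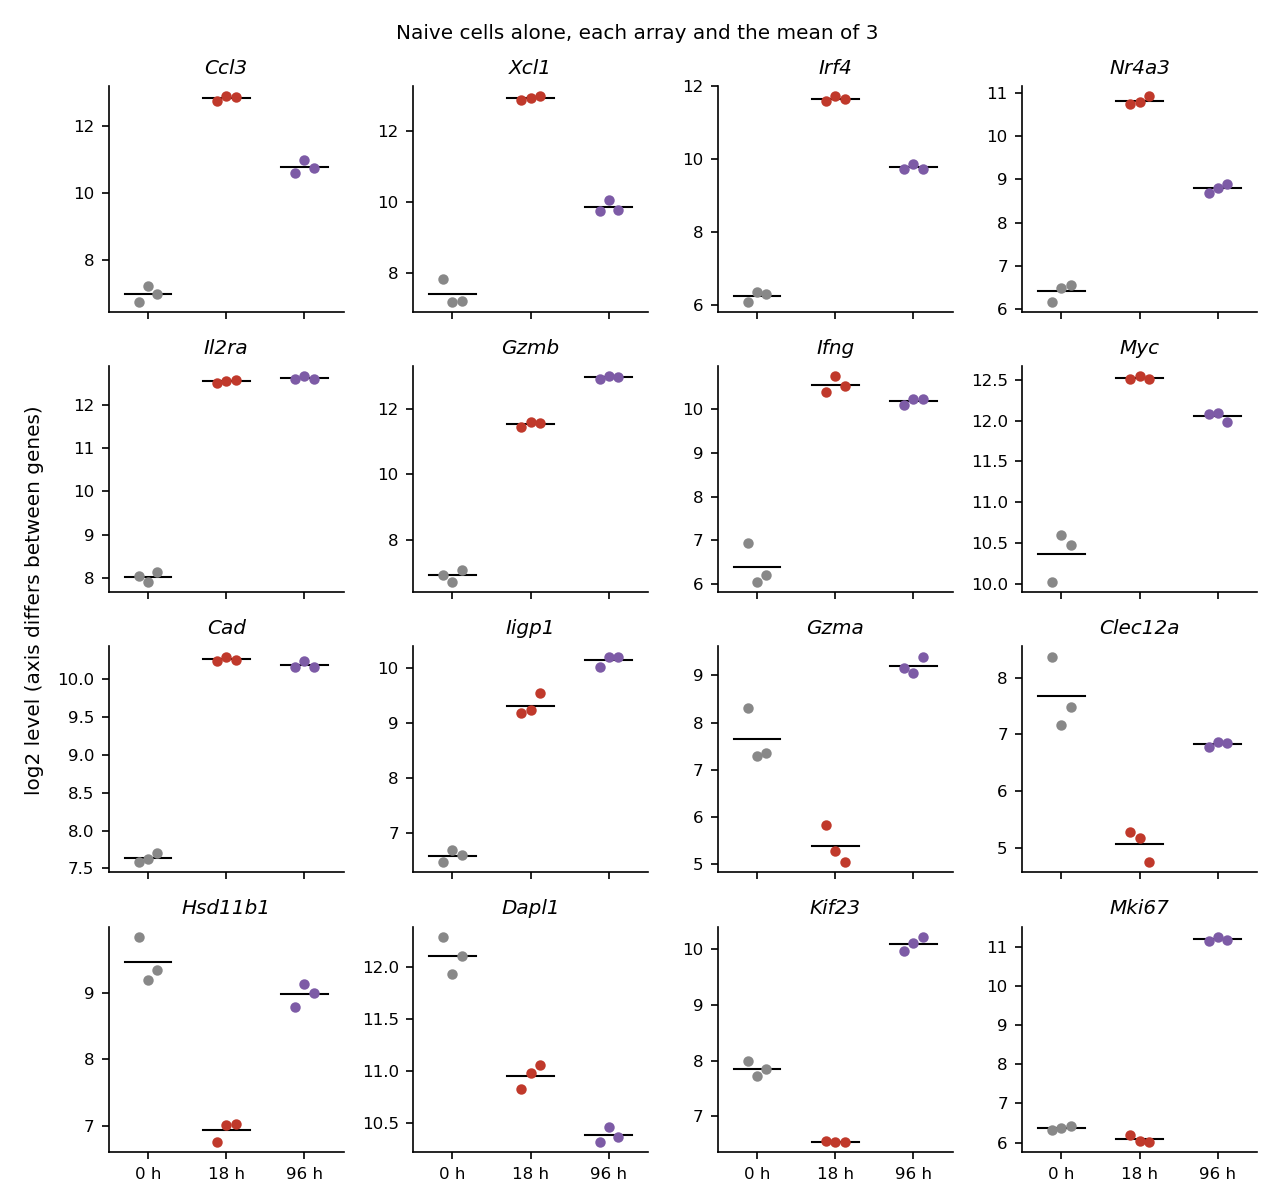
Log2 level (vertical axes, which differ between genes) of 16 genes on each array of naive cells alone at 0 h, 18 h and 96 h, with dots for arrays and bars for means of 3. Ccl3, Xcl1, Irf4 and Nr4a3 peak at 18 h, Il2ra keeps its level at 96 h, Gzma and Clec12a dip at 18 h, and Kif23 and Mki67 are highest at 96 h.

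Among the transcription factors that receptor signals induce directly, the NR4A and EGR families were high at 18 h. Of 17 EGR, NR4A and AP-1 factors, 10 rose and 4 fell, against 17.3% and 16.7% of all autosomal genes, with a median of 0.97 against -0.02 over all. This list and those below were chosen with earlier results of these data known, so their counts and shares are descriptions. Nr4a3, an orphan nuclear receptor induced by the T cell receptor, read 6.17, 6.50 and 6.57 at 0 h and 10.74, 10.79 and 10.92 at 18 h, a rise of 4.40 (SE 0.18). Its relatives Nr4a2 and Nr4a1 rose by 4.19 (SE 0.17) and 3.12 (SE 0.14). Egr2 and Egr3, zinc finger factors that restrain and shape the response, rose by 2.77 (SE 0.17) and 2.01 (SE 0.10), and Egr1 by 0.97 (SE 0.11). The AP-1 family was divided. Fosl1 (2.53), Atf3 (2.07) and Fosl2 (1.57) rose, while Junb (-0.96), Fos (-0.86), Batf (-0.79) and Jund (-0.33) fell. The call of Jund was lost without replicate 1 at 0 h, without replicate 2 at 18 h and in the fit of the 6 arrays alone (adjusted p up to 0.183). Fos read 8.40, 8.38 and 8.55 at 0 h and 7.65, 7.49 and 7.59 at 18 h, and the 0 h arrays were all above the 18 h arrays.

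Factors of the NF-kB, NFAT, IRF and STAT families rose in 14 of 21 cases and fell in 3, with a median of 0.84. Irf8, a partner factor of effector CD8+ T cells that is better known from myeloid cells, read 7.65, 7.53 and 7.41 at 0 h and 11.47, 11.50 and 11.41 at 18 h, a rise of 3.93 (SE 0.07). Rel, the NF-kB subunit needed for Il2 transcription, rose by 2.31 (SE 0.15), and Nfatc1, whose short form is itself induced by NFAT, by 1.72 (SE 0.09). Nfkb2 (1.40), Relb (1.22), Stat2 (1.15), Stat3 (1.09), Nfatc2 (1.02) and Stat5a (1.00) also rose. Stat4, which carries the signal of IL-12, fell by 0.61 (SE 0.08), and Irf3 fell by 0.47 (SE 0.08). The fall of Irf7 (-0.24) was lost in 7 alternatives, among them the fits without replicate 2 or 3 at 0 h and without replicate 1 or 3 at 18 h (adjusted p up to 0.173). Inhibitors of signalling rose more often than they fell. Of 27 feedback inhibitors of signalling, 18 rose and 4 fell (median 0.44), and without replicate 1 at 0 h 14 and 5. Spry1, an inhibitor of RAS and MAP kinase signalling, rose by 3.67 (SE 0.10), and the MAP kinase phosphatases Dusp4, Dusp6 and Dusp5 by 2.15, 1.63 and 1.45, that of Dusp4 from a level near background. Socs2 (1.88) and Cish (1.56), which are induced by STAT5, and the ubiquitin ligase Cblb (1.71) rose too. Dusp10 (-0.94), Socs3 (-0.89) and Dusp1 (-0.62) fell, and Pik3ip1, an inhibitor of PI3 kinase, fell by 0.42 (SE 0.10).

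The receptor itself and its proximal machinery showed no common direction. Of 20 genes, 7 rose and 6 fell. Cd3d, a chain of the CD3 complex, read 11.94, 11.58 and 11.64 at 0 h and 10.55, 10.50 and 10.47 at 18 h, and fell by 1.22 (SE 0.11), and Cd3g fell by 0.83 (SE 0.07). Cd3e read 12.16, 12.86 and 12.77 at 0 h and 12.63, 12.77 and 12.75 at 18 h, and its difference of 0.12 was not called. Cd8b1, the beta chain of the coreceptor, fell by 0.47 (SE 0.11). Themis (-0.93) and the kinase Tec (-1.13), which act beneath the receptor, fell. The inhibitory scavenger receptors Cd5 and Cd6 rose by 1.55 (SE 0.13) and 1.39 (SE 0.12), and the kinases Zap70 and Fyn by 0.95 (SE 0.07) and 0.87 (SE 0.08). Of 8 CD8+ T cell markers 5 fell and 1, Zap70, rose (median -0.34), with list means of 11.80 to 12.00 at 0 h and 11.60 to 11.64 at 18 h.

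Most surface molecules of activated T cells rose. Of 13 activation markers, 11 rose and 1 fell, with a median of 1.35. Cd44 read 5.87, 6.25 and 6.26 at 0 h and 7.92, 8.02 and 8.21 at 18 h, a rise of 1.92 (SE 0.23). Slamf7, an adhesion receptor of cytotoxic cells, rose by 3.09 (SE 0.09), Cd200 by 1.80 (SE 0.11) and Cd83 by 1.35 (SE 0.13). Tfrc, the transferrin receptor that brings iron into growing cells, read 9.09, 8.97 and 8.98 at 0 h and 9.97, 9.87 and 10.07 at 18 h, a rise of 0.96 (SE 0.10). Cd69, an early marker that retains cells in lymphoid tissue, was already at 11.57, 11.21 and 11.19 before stimulation and read 11.77, 11.89 and 12.03 at 18 h, a rise of 0.57 (SE 0.14). Cd86 fell by 0.74 (SE 0.10).

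Of 17 costimulatory receptors and ligands, most of the TNF superfamily, 11 rose and 1 fell. Tnfrsf9 (4-1BB), which sustains CD8+ T cells, read 8.39, 7.92 and 8.13 at 0 h and 11.84, 11.81 and 11.85 at 18 h, a rise of 3.69 (SE 0.18). Tnfrsf4 (OX40) rose by 0.96 (SE 0.12) and Icos by 0.82 (SE 0.08), while Cd27 (difference -0.13) and Cd70 (0.08) were not called. Some inhibitory receptors rose as well. Pdcd1 (PD-1) read 6.94, 6.84 and 7.02 at 0 h and 10.42, 10.48 and 10.37 at 18 h, a rise of 3.49 (SE 0.11). Its ligand Cd274 (PD-L1) rose by 2.57 (SE 0.15), Lag3 by 2.35 (SE 0.08), Tigit by 1.82 (SE 0.21) and Ctla4 by 0.71 (SE 0.14). Havcr2 (TIM-3) read 4.97, 5.09 and 4.95 at 0 h and 5.06, 5.09 and 5.11 at 18 h, near background in both groups. Of 15 inhibitory receptors and ligands 7 rose and 2, Cd96 and Cd200r1, fell, the latter with both means near background, and 3 fell without replicate 1 at 0 h.

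Chemokines and a few cytokines were strongly induced. Of 14 chemokines 9 rose and 0 fell, and 5 rose by at least 1, as 3.57% of all autosomal genes did. Beside Ccl3 and Xcl1 these were Ccl4 (3.35, SE 0.19), Cxcl10 (3.04, SE 0.19) and Ccl9 (1.94, SE 0.17). Ccl5, a chemokine of effector and memory cells, read 9.28, 9.25 and 9.29 at 0 h and 9.67, 9.51 and 9.54 at 18 h, a difference of 0.30 that was not called. Among 23 genes of cytokines and IL-12 receptor chain 1, 9 rose and 2 fell. Ifng, the main macrophage-activating cytokine of CD8+ T cells, read 6.93, 6.06 and 6.21 at 0 h and 10.39, 10.74 and 10.51 at 18 h. The difference was 4.14 (SE 0.45) with an adjusted p = 1.54e-08. Il2, the T cell growth factor, read 5.05, 5.14 and 4.93 at 0 h and 7.30, 7.51 and 7.33 at 18 h. It was near background before stimulation, so that the rise of 2.34 (SE 0.17) is a lower bound. Tnf (1.67), Lta (1.77) and Lif (1.80) rose, and Ltb fell by 0.71 (SE 0.11). Osm fell by 0.59 (SE 0.20), a call lost without replicate 2 at 0 h or replicate 1 at 18 h (adjusted p up to 0.0761). Il3 read 4.33, 4.45 and 4.70 at 0 h and 5.76, 5.91 and 5.65 at 18 h, with both means near background, and its rise of 1.28 (SE 0.41) was not called without replicate 1 at 0 h (adjusted p = 0.056). Csf2, which encodes GM-CSF, read 5.80, 5.58 and 5.73 at 0 h and 5.83, 5.51 and 5.72 at 18 h, with both means near background. Il10, Il21, Il4 and Il6 were not called, and 7 of the 23 genes were near background at both times.

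Genes of the IL-2 receptor and of STAT5, through which IL-2 acts, rose in 11 of 18 cases and fell in 2 (3 without replicate 1 at 0 h), with a median of 0.48. Il12rb2, a chain of the IL-12 receptor, read 6.60, 7.12 and 7.13 at 0 h and 10.99, 11.12 and 11.10 at 18 h, a rise of 4.12 (SE 0.12). Il12rb1, the other chain, rose by 2.40 (SE 0.11), and Il2rb, the beta chain shared by the receptors of IL-2 and IL-15, by 1.32 (SE 0.11). Bcl2l1, which encodes the survival factor BCL-XL, rose by 1.26 (SE 0.07) and Pim1 by 0.61 (SE 0.09). Il18r1 (0.03) and Il18rap (0.29), the chains of the IL-18 receptor, were not called.

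Cytotoxic genes did not move as a group at 18 h. Of 22 granzymes and other cytotoxic molecules, 4 rose and 8 fell, with a median of -0.02. Beside Gzmb, the granzyme B inhibitor Serpinb9 rose by 0.97 (SE 0.16). Fasl and Gzmc rose by 0.85 (SE 0.21) and 0.85 (SE 0.22) from levels near background. Prf1, the pore-forming perforin, read 9.33, 9.65 and 9.64 at 0 h and 9.56, 9.72 and 9.57 at 18 h. These values overlapped, and the difference of 0.08 (SE 0.14) was not called (adjusted p = 0.744). Gzma, the granzyme A gene, went the other way from Gzmb and read 8.31, 7.30 and 7.36 at 0 h and 5.84, 5.29 and 5.05 at 18 h, and fell by 2.26 (SE 0.21) to a level near background. Klrd1, which encodes the receptor chain CD94, fell by 1.13 (SE 0.20). Replicate 1 stood above the other 0 h arrays for Gzma. All 0 h arrays stood above all 18 h arrays, as its choice among the named falls required.

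Transcription factors of effector cells rose in 15 of 28 cases and fell in 5. Tbx21, which encodes T-bet, read 7.10, 6.99 and 6.89 at 0 h and 10.72, 10.77 and 10.72 at 18 h, a rise of 3.75 (SE 0.14). Eomes, its relative in effector and memory cells, read 6.63, 6.43 and 6.72 at 0 h and 9.29, 9.37 and 9.54 at 18 h, a rise of 2.81 (SE 0.09). Bhlhe40, a repressor that supports cytokine production, rose by 2.66 (SE 0.12). The arrays within each of these groups lay close to each other. Ikzf3 (1.60), Zeb2 (1.20), Runx3 (1.13), Gfi1 (1.01) and Hif1a (0.99) also rose. Prdm1, which encodes Blimp-1 of terminally differentiated cells, read 6.30, 6.58 and 6.46 at 0 h and 6.38, 6.21 and 6.25 at 18 h and was not called. Id2, an inhibitor of E proteins in effector cells, read 10.75, 10.13 and 10.24 at 0 h and 9.24, 9.02 and 9.40 at 18 h, and fell by 1.15 (SE 0.22). Gata3 (-0.39) and Ikzf2 (-0.54) fell as well.

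Genes of the naive and resting state were divided, with 18 of 44 risen, 18 fallen and a median of 0.04. Without replicate 1 at 0 h 16 rose, 18 fell and the median was -0.09. Several well-known naive genes were not among those called. Lef1, a Wnt pathway factor of naive and stem-like cells, read 10.91, 11.31 and 11.25 at 0 h and 11.11, 11.15 and 11.15 at 18 h, a difference of -0.02 (SE 0.09). Il7r, the receptor for IL-7, read 11.66, 12.31 and 12.26 at 0 h and 11.88, 11.96 and 12.00 at 18 h, and Ccr7, which guides cells into lymph nodes, read 12.37, 12.72 and 12.76 at 0 h and 12.35, 12.50 and 12.48 at 18 h. For Il7r and Ccr7 the differences were -0.13 (SE 0.16) and -0.17 (SE 0.12), and both were called lower with weighted arrays. Klf2, which maintains recirculation, fell by 0.48 (SE 0.13). Members of this list known to hold back growth and division went both ways. The CDK inhibitors Cdkn2d (-1.38, SE 0.12), Cdkn2c (-1.04, SE 0.18) and Cdkn1b, which encodes p27 (-0.57, SE 0.08), fell. Sesn1 (-1.20) and Ddit4 (-1.15), inhibitors of mTOR, Btg2 (-1.003), an antiproliferative factor, and Txnip (-0.99), which limits glucose uptake, also fell. Tsc2 (0.87) and Tsc1 (0.38), which restrain mTOR, Rbl1 (0.57), a relative of the retinoblastoma protein, Foxo3 (0.42), Sesn3 (0.41) and Tob2 (0.26) rose. The call of Tsc1 was lost with the 6 arrays alone (adjusted p = 0.0516), and that of Tob2 there and without replicate 2 at 0 h or replicate 1 or 2 at 18 h (adjusted p up to 0.123). Bach2, a repressor of effector genes, read 8.39, 8.87 and 8.82 at 0 h and 10.88, 10.86 and 10.83 at 18 h, a rise of 2.16 (SE 0.12). Bcl6 (1.57), Zfp36l1 (1.83), Klf13 (1.59) and Foxp1 (1.00) rose with it.

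Homing and survival receptors of naive cells fell more often than they rose, 12 against 5 of 26. Cd7, an immunoglobulin superfamily molecule of T cells, read 11.91, 12.00 and 12.04 at 0 h and 9.92, 10.03 and 10.01 at 18 h, and fell by 2.00 (SE 0.18). The gut-homing receptor Ccr9 fell by 1.52 (SE 0.25), Cxcr4 fell by 1.45 (SE 0.11), the oxysterol receptor Gpr183 fell by 1.19 (SE 0.21) and integrin beta 7 (Itgb7) fell by 1.16 (SE 0.13). S1pr1, which lets cells leave lymphoid organs, fell by 0.58 (SE 0.08). Both chains of the interferon gamma receptor fell, Ifngr1 (-0.77, SE 0.09) and Ifngr2 (-0.84, SE 0.22). Cxcr6, a receptor of tissue-seeking effector cells, read 8.94, 8.76 and 8.93 at 0 h and 6.70, 7.15 and 7.03 at 18 h, and fell by 1.91 (SE 0.22). All 8 measured GIMAP genes, which encode GTPases of lymphocyte survival, had a difference below 0, and 6 of them fell, Gimap7 (-1.43) and Gimap9 (-1.37) most. The GIMAP median was -0.58.

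The genes that build ribosomes rose together. Of 46 genes of ribosome assembly and RNA polymerase I, 41 rose and 0 fell, 20 of them by at least 1, against 17.3% and 3.57% of all autosomal genes. Their median was 0.91, and 0.98 without replicate 1 at 0 h, where 43 rose. This list too was chosen with earlier results known, so these shares are a description. The mean of the list was 9.52, 9.57 and 9.58 at 0 h and 10.52, 10.50 and 10.52 at 18 h. Myc, the transcription factor that drives this programme in growing cells, read 10.02, 10.60 and 10.48 at 0 h and 12.51, 12.54 and 12.52 at 18 h, a rise of 2.16 (SE 0.11) with an adjusted p = 2.67e-15. Polr1b, the second largest subunit of RNA polymerase I, read 8.43, 9.11 and 9.07 at 0 h and 11.08, 11.10 and 11.08 at 18 h, a rise of 2.21 (SE 0.12). Rrp1b (2.14), Mybbp1a (1.88), Nat10 (1.84), which acetylates ribosomal RNA, Utp20 (1.84) and Polr1a (1.70) rose alike. Ncl, which encodes the abundant nucleolar protein nucleolin, rose by 1.12 (SE 0.11), and Npm1 by 0.85 (SE 0.09). The 5 members not called were Polr1e, Nob1, Wdr12, Polr1c and Nop10, with differences from -0.37 to 0.22.

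Other parts of the protein synthesis machinery followed in part. Of 22 aminoacyl-tRNA synthetases and their partners, which load amino acids onto tRNA, 16 rose and 1, Qars, fell. Wars read 8.47, 9.11 and 8.96 at 0 h and 11.35, 11.44 and 11.39 at 18 h, a rise of 2.54 (SE 0.13), and Vars, Iars and Eprs rose by 1.49, 1.28 and 1.00. Of 36 translation factors 20 rose, among them Eif4g3 (1.52), Eif3b (1.13) and Eif5a (1.01), and 7 fell, of which 1 was called without replicate 1 at 0 h. The ribosomal proteins themselves did not rise with their assembly factors. Of 52 cytosolic ribosomal protein genes 2 rose and 31 fell, with a median of -0.27. Without replicate 1 at 0 h 1 rose, 24 fell and the median was -0.21. Rps3a1 (-1.28) and Rpl14 (-1.10) fell by more than 1. Their list means were 12.47, 12.29 and 12.31 at 0 h and 12.07, 12.05 and 12.11 at 18 h, so all 3 arrays at 18 h lay below all at 0 h. Since ribosomal protein genes have many near-identical pseudogenes, the values of single genes are uncertain.

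**Figure D3:**
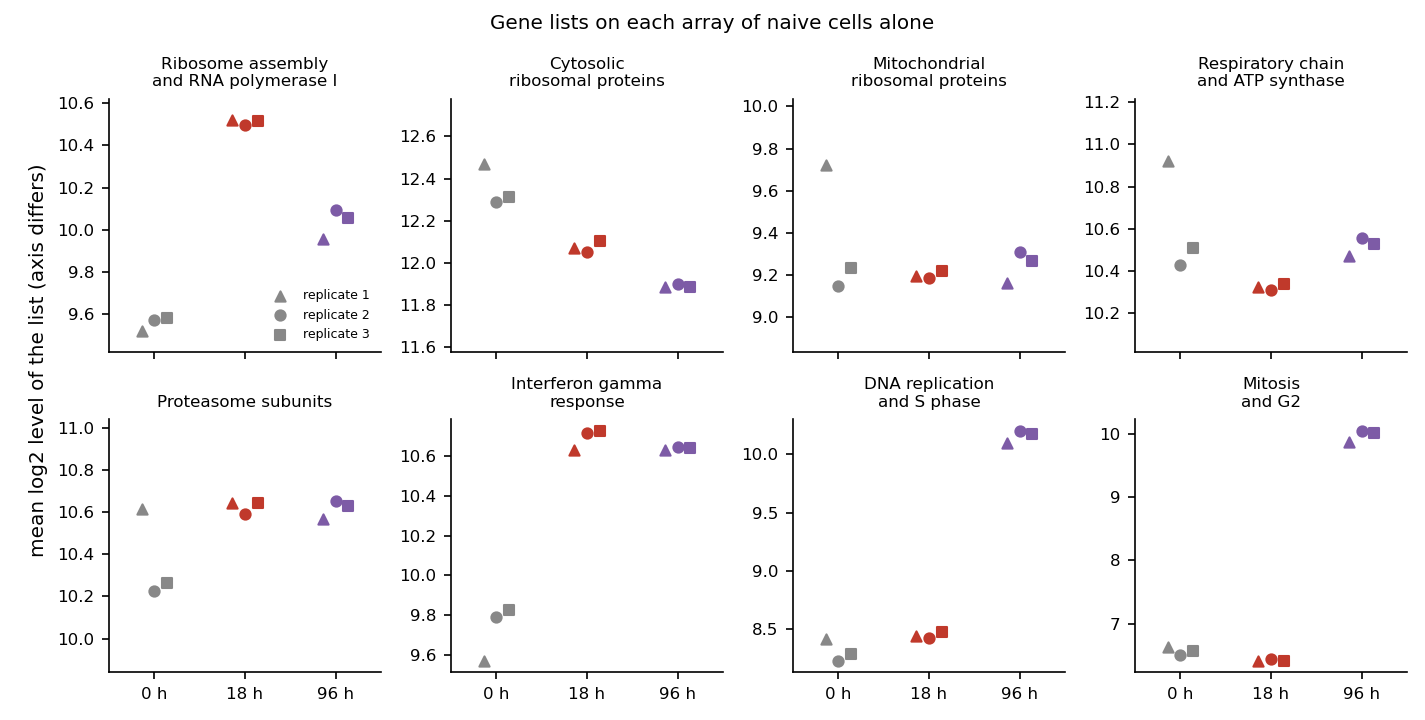
Mean log2 level (vertical axes, which differ) of 8 gene lists on each array of naive cells alone at 0 h, 18 h and 96 h, with a symbol for each replicate. Ribosome assembly genes lie at 9.52 to 9.58 at 0 h and 10.50 to 10.52 at 18 h, replicate 1 at 0 h stands above the others for mitochondrial ribosomal proteins (9.72) and the respiratory chain, and mitosis genes reach 9.88 to 10.05 at 96 h.

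Mitochondrial genes gave results that depended on the array that stood apart. Of 65 subunits of the respiratory chain and ATP synthase, 7 rose and 33 fell (median -0.32). Without replicate 1 at 0 h, 8 rose and 18 fell (median -0.15). Their list means were 10.92, 10.43 and 10.51 at 0 h and 10.32, 10.31 and 10.34 at 18 h. The 18 h arrays were below all 0 h arrays, but replicates 2 and 3 were close to them. Of 72 mitochondrial ribosomal proteins 6 rose and 25 fell (median -0.18), against 12 and 11 (median -0.02) without that array. Ndufa2, a complex I subunit, read 11.31, 10.33 and 10.45 at 0 h and 9.43, 9.66 and 9.70 at 18 h, and fell by 1.10 (SE 0.16), and Atp5g1, a membrane ring subunit of ATP synthase, rose by 0.67 (SE 0.08). Mitochondrial import and chaperone genes rose in 13 of 25 cases (14 without the array) and fell in 3 (2 without it). Hspd1 (HSP60) read 10.30, 10.46 and 10.32 at 0 h and 12.04, 12.00 and 11.99 at 18 h, a rise of 1.65 (SE 0.08).

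Genes of fat and sugar use moved in different directions. Of 19 genes of fatty acid oxidation, 2 rose and 12 fell, with a median of -0.48 (10 fallen, median -0.32, without replicate 1 at 0 h). Acaa2, the thiolase of the last step of the mitochondrial cycle, read 11.40, 11.18 and 11.22 at 0 h and 9.40, 9.36 and 9.41 at 18 h, and fell by 1.88 (SE 0.09). Hadhb (-0.94, SE 0.13) and Hadh (-0.91, SE 0.09), which act in the same cycle, fell too. Cpt1a, the gate for entry of fatty acids into mitochondria, fell by 0.71 (SE 0.18), a call lost in the fit of the 6 arrays alone (adjusted p = 0.129). Genes of fatty acid synthesis had no common direction. Fasn, fatty acid synthase, read 7.95, 8.13 and 8.19 at 0 h and 10.48, 10.54 and 10.43 at 18 h, a rise of 2.39 (SE 0.08), and Acaca, acetyl-CoA carboxylase, rose by 2.05 (SE 0.14). In that list of 11, 4 rose and 2, Elovl5 and Scd2, fell, with a median of 0.045. Without replicate 1 at 0 h 3 rose, 2 fell and the median was -0.094. Of 19 genes of glycolysis and glucose transport 11 rose and 3 fell (11 and 2 without replicate 1 at 0 h). Hk2, the inducible hexokinase, read 6.60, 6.41 and 6.53 at 0 h and 8.03, 8.19 and 8.004 at 18 h, a rise of 1.56 (SE 0.15). Pgam1 (1.39), Pfkfb3 (1.04), Aldoa (0.95), Pkm (0.81), the glucose transporter Slc2a1 (0.73) and Ldha (0.57) rose, and Ldhb fell by 0.76 (SE 0.12). Of 19 genes of the TCA cycle and its transaminases 6 rose and 6 fell. Got1 rose by 1.45 (SE 0.09) and Ogdh by 1.22 (SE 0.11), and the cytosolic Idh1 fell by 1.48 (SE 0.21).

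Most genes that take up amino acids, and many that make nucleotides, rose. Of 13 amino acid transporters 9 rose and 1, Slc43a1, fell (not called without replicate 2 at 0 h or with the 6 arrays alone, adjusted p up to 0.0574), with a median of 1.09 (0.91 without replicate 1 at 0 h). Slc7a5, the large neutral amino acid carrier on which T cell growth depends, read 9.07, 9.43 and 9.43 at 0 h and 11.87, 11.80 and 11.73 at 18 h, a rise of 2.49 (SE 0.13). Its heavy chain Slc3a2 rose by 1.11 (SE 0.10), the arginine carrier Slc7a1 by 2.12 (SE 0.10) and the glutamine carriers Slc38a1 and Slc1a5 by 1.51 (SE 0.11) and 1.24 (SE 0.14). In nucleotide synthesis 13 of 23 genes rose and 2, Dck and Rrm2, fell. Cad, which catalyses the first steps of pyrimidine synthesis, read 7.59, 7.62 and 7.71 at 0 h and 10.24, 10.30 and 10.25 at 18 h, a rise of 2.63 (SE 0.10). Pfas and Umps rose by 2.21 (SE 0.09) and 1.39 (SE 0.10). In the one-carbon and serine pathway 8 of 14 rose, Shmt1 by 1.99 (SE 0.10) and Mthfd1 by 1.35 (SE 0.10). In the polyamine pathway 6 of 9 rose and 1, Oaz2, fell (0 without replicate 1 at 0 h), with the rate-limiting Odc1 at 1.87 (SE 0.18). The targets of ATF4, the factor of amino acid shortage, did not share a direction. Of 17, 6 rose, Asns most (1.76), and Ddit3 (-0.90) and Ddit4 fell.

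Genes of sterol synthesis were mixed, with 7 of 20 risen and 5 fallen. Srebf2, the sterol-sensing transcription factor, rose by 1.14 (SE 0.08), and the cholesterol exporter Abca1 fell by 1.22 (SE 0.14). In the PI3 kinase and mTOR pathway 11 of 26 rose and 4 fell, against 10 and 6 without replicate 1 at 0 h. Rptor and Mtor, which form the core of mTOR complex 1, rose by 1.32 (SE 0.12) and 1.01 (SE 0.11). The median of that list was 0.17, and 0.11 without replicate 1 at 0 h. Lysosomal and autophagy genes fell in 18 of 37 cases and rose in 6, with 15 and 7 without that array. The cathepsins Ctsl (-1.26) and Ctsd (-1.06) and the hexosaminidase Hexa (-1.21) fell by more than 1. Map1lc3b, whose product coats autophagosomes, fell by 0.67 (SE 0.08), and its relative Gabarapl1 rose by 1.30 (SE 0.11). In the fit of the 6 arrays alone 11 autophagy and lysosome genes fell.

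Protein folding genes rose. Of 23 genes of the unfolded protein response and folding in the endoplasmic reticulum, 18 rose and 4 fell, with the same counts without replicate 1 at 0 h. Atf6, a sensor of misfolded proteins, read 7.13, 7.45 and 7.48 at 0 h and 9.04, 9.12 and 9.12 at 18 h, a rise of 1.74 (SE 0.15). The chaperones Hyou1 and Hspa5 (BiP) rose by 1.66 (SE 0.10) and 0.89 (SE 0.08), and Xbp1 by 0.75 (SE 0.10). Of 29 cytosolic chaperones 17 rose and 3 fell (19 and 1 without replicate 1 at 0 h), Hsph1 (1.38) and Hsp90aa1 (1.09) most among those that rose. For proteasome subunits the count again depended on the 0 h array that stood apart. Of 38, 14 rose and 3 fell, and without it 23 rose and 2 fell. List means were 10.61, 10.23 and 10.26 at 0 h and 10.64, 10.59 and 10.64 at 18 h. The 3 that fell in the first count were Psmb10 (-0.90), Psmb1 (-0.79) and Psmb8 (-0.33), of which Psmb8 and Psmb10 belong to the immunoproteasome. The call of Psmb8 was lost without that array, without replicate 1 at 18 h and in 2 further alternatives (adjusted p up to 0.258). Psme3, an activator cap, read 9.85, 9.77 and 9.74 at 0 h and 11.12, 11.14 and 11.13 at 18 h, a rise of 1.35 (SE 0.06).

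Genes of the cell cycle differed by phase. In the list of the Myc network and G1 regulators 12 of 32 rose and 11 fell. Cdk6 read 8.28, 9.07 and 8.94 at 0 h and 11.41, 11.44 and 11.42 at 18 h, a rise of 2.66 (SE 0.13), and cyclin D2 (Ccnd2) rose by 1.45 (SE 0.12), both of which drive passage through G1. Cyclin D3 (Ccnd3) fell by 0.70 (SE 0.08), and cyclin E1 (Ccne1) fell by 0.60 (SE 0.07). Of 48 genes of DNA replication and S phase 21 rose and 11 fell, with a median of 0.15. The helicase subunits Mcm2, Mcm5, Mcm3, Mcm4 and Mcm6 rose by 1.30, 0.91, 0.80, 0.68 and 0.51, while Mcm7 (-0.17) was not called. Dtl, which controls licensing of origins, read 6.01, 5.72 and 5.84 at 0 h and 7.24, 7.33 and 7.51 at 18 h, a rise of 1.51 (SE 0.08) from a level near background. Rpa3, a subunit of the single-strand binding protein, fell by 1.47 (SE 0.29). Of 35 mitosis and G2 genes 1, Gtse1 (1.12), rose and 10 fell, and 12 were near background at both times. Mki67, the proliferation marker Ki-67, read 6.32, 6.38 and 6.43 at 0 h and 6.20, 6.05 and 6.01 at 18 h, a difference of -0.29 that was not called. The list mean of mitosis genes was 6.62, 6.51 and 6.56 at 0 h and 6.42, 6.44 and 6.41 at 18 h.

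Genes of the replication-dependent histones were low at 18 h. H1f2 and H2ac4 stood among the 15 largest falls, and the group was looked at after that was seen, so its counts are a description. Of 26 histone genes with H1f, H2ac, H2bc, H3c or H4c symbols on autosomes, 25 were called lower and 0 higher, 19 of them by at least 1, with a median of -1.19. Without replicate 1 at 0 h 23 were lower and the median was -0.95. H4c3 read 10.90, 9.88 and 9.97 at 0 h and 7.95, 8.52 and 8.47 at 18 h, and fell by 1.94 (SE 0.18). The row named H1f2, a linker histone, read 11.40, 11.35 and 11.32 at 0 h and 8.62, 8.68 and 8.60 at 18 h, and fell by 2.73 (SE 0.12). That row lists no RefSeq transcript, nor do those of 2 further histone genes of the 26, so its fall belongs to what the row detects and is not assigned to the gene. At 96 h 24 of the 26 were higher than at 18 h, with a median of 1.66. Copies of a histone are close to identical in sequence, so rows of single genes may share signal.

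Genes of the interferon gamma response rose, and more genes of the type I response fell than rose. Of 18 genes of the response to interferon gamma 14 rose and 1, the immunoproteasome subunit Psmb8, fell, with a median of 0.84 (0.67 without replicate 1 at 0 h, where 13 rose and 0 fell). Of 23 genes of the type I response 5 rose and 12 fell, with a median of -0.34. Iigp1, a GTPase of defence against intracellular parasites, read 6.48, 6.70 and 6.60 at 0 h and 9.19, 9.23 and 9.55 at 18 h, a rise of 2.73 (SE 0.27). The guanylate binding proteins Gbp5, Gbp7 and Gbp4 rose by 2.58 (SE 0.21), 1.77 (SE 0.29) and 1.55 (SE 0.18). Gbp5 read 7.05, 7.37 and 7.51 at 0 h and 9.81, 9.89 and 9.97 at 18 h. Nlrc5 (0.98), which switches on MHC class I genes, Tap1 (0.81) and Tapbp (0.87), which load peptides, rose as well, and B2m (-0.05) was not called. In the type I list Mx1 (-1.07, to a level near background), Ifi27l2a (-0.86), Rsad2 (-0.80), Ifit1 (-0.71) and Usp18 (-0.69) fell, while Stat2 (1.15) and Oasl2 (0.97) rose.

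Since genes of the interferon gamma list moved together, the 250 bases before their start sites were read in RefSeq (GRCm38.p6) on both strands for GAAA followed, after any 2 bases, by GAAA again, the core of the element bound by interferon regulatory factors. The motif was chosen with these results known. It was found for 6 of the 13 list members with a promoter in the table (Gbp3, Gbp5, Gbp7, Irgm1, Socs1 and B2m), against 3.42% of 14959 tested genes with a promoter, 3.64% of 549 genes that rose by at least 1 and 5.56% of 306 that fell by at least 1. The promoters of the 3 with the largest rise are shown with the match in capitals, 5′ to 3′ on the gene's strand and ending at the base before the start. They are Gbp5 (chr3:142496684-142496933, plus strand), Gbp7 (chr3:142530086-142530335, plus strand) and Irgm1 (chr11:48871421-48871670, minus strand).
Gbp5: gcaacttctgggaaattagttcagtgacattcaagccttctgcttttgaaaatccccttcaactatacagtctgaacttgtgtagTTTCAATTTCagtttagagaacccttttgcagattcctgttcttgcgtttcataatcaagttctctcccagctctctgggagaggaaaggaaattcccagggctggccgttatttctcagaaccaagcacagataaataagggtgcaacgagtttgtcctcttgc
Gbp7: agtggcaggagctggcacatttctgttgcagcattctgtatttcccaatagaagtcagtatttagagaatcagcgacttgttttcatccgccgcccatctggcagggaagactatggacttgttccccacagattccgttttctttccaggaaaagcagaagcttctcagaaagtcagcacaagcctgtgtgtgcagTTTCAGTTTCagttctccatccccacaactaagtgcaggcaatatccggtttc
Irgm1: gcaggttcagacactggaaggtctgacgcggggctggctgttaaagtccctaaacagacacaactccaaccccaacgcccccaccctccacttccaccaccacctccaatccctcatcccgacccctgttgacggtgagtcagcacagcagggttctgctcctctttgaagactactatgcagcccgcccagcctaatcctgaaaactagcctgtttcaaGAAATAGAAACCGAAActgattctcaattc
The match begins 165 bases before the start in Gbp5 and 53 in Gbp7, and Irgm1 holds 2 overlapping matches close to it. Gbp5 and Gbp7 rose by 2.58 and 1.77 and Irgm1 by 1.16 (SE 0.16), while B2m, which also holds the motif, was not called. A match is a description of letters and not of binding. The share of genes of the type I response that hold the motif was not counted.

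The NF-kB motif searched, GGG and TTTCC separated by any 2 bases, stood before 1.62% of tested genes, before 3.83% of those that rose by at least 1 (21 of 549, Bcat1, Tnfrsf9, Gbp5, Rel and Nfkb2 among them) and before 0.98% of those that fell by at least 1 (3 of 306). None of the 9 surface activation markers with a promoter held it (0 of 9). The E-box CACGTG, which Myc can bind, stood before 8.14% of tested genes, 11.11% of those that rose by at least 1 and 6.86% of those that fell, and before 3 of 41 ribosome assembly genes with a promoter (Nop2, Rrn3 and Imp4). The E2F motif TTTCGCG stood before 1.18% of tested genes and before 5 of 40 S phase genes (Mcm5, Mcm6, Orc1, Rfc3 and Uhrf1), of which Rfc3 was not called. These shares are descriptions and were not tested.

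Survival and ion channel genes had no common direction. Of 14 BCL2 family genes 3 rose and 1, Bad, fell, a call lost with the 6 arrays alone (adjusted p = 0.0726). Bcl2l11, which encodes the killer protein BIM, read 7.98, 8.53 and 8.34 at 0 h and 9.59, 9.58 and 9.66 at 18 h, a rise of 1.33 (SE 0.12) beside that of Bcl2l1. Mcl1 (0.07) was not called. In the Fas and death receptor pathway 10 of 11 were called, against 34.0% of all autosomal genes. Of these 5 rose and 5 fell, with the death receptor Tnfrsf10b higher by 0.92 (SE 0.10) and the inhibitor of apoptosis Birc2 lower (-0.61, SE 0.16). The fall of Fas itself (-0.60) was lost without replicate 1 at 0 h, without replicate 2 at 18 h and with the 6 arrays alone (adjusted p up to 0.248). Of 16 potassium and calcium channel genes 5 rose and 3 fell. Orai1, the pore of the calcium channel opened by receptor signals, rose by 0.87 (SE 0.11), and the calcium-permeable channel Trpv2 fell by 0.93 (SE 0.12).

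**Figure D4:**
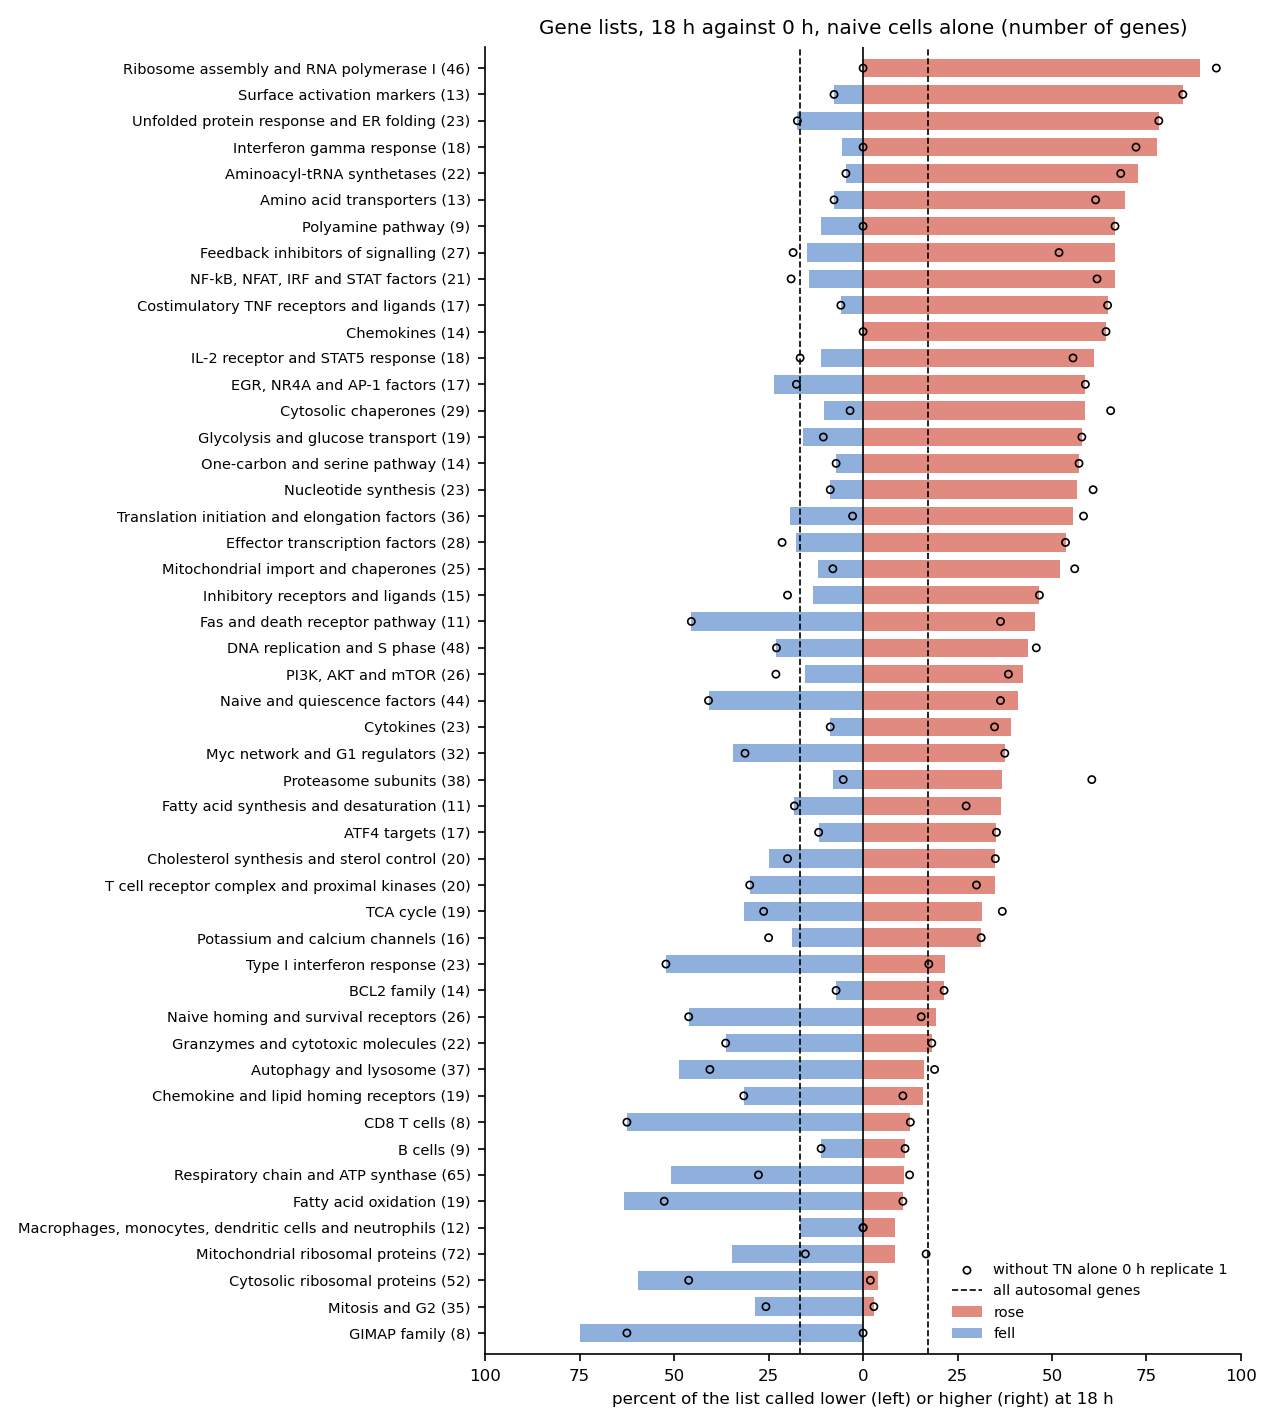
Percent of each gene list (number of genes in brackets, lists of 8 or more) called higher (right, red) or lower (left, blue) at 18 h, with circles for the fit without TN alone 0 h replicate 1 and dashed lines at 17.3% and 16.7% of all autosomal genes. Ribosome assembly stands at the top with 41 of 46 risen, and circles leave the bars for mitochondrial ribosomal proteins, the respiratory chain and proteasome subunits.

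The largest falls included transporters, enzymes, surface receptors and histones. Slc16a5, a monocarboxylate transporter, read 9.94, 10.21 and 10.32 at 0 h and 6.87, 6.96 and 6.97 at 18 h, and fell by 3.23 (SE 0.25) or 9.36-fold. Hsd11b1, which activates glucocorticoids, read 9.84, 9.19 and 9.34 at 0 h and 6.76, 7.02 and 7.04 at 18 h, and fell by 2.52 (SE 0.20). Clec12a, an inhibitory lectin, read 8.37, 7.16 and 7.48 at 0 h and 5.28, 5.18 and 4.76 at 18 h, and fell by 2.60 (SE 0.18) to a level near background. In each the groups were apart, as the choice of the named falls required. Cd72, best known from B cells, read 10.48, 10.34 and 10.50 at 0 h and 7.96, 7.99 and 7.94 at 18 h, and fell by 2.48 (SE 0.11). Cd79b, a chain of the B cell receptor complex, fell from 9.73, 9.44 and 9.51 to 7.79, 7.92 and 7.80. Of the 9 B cell markers Cd79a, Ms4a1 and Blnk were near background at both times, Cd74 rose by 1.36 (SE 0.15) and Cd79b alone fell. In arrays of each time the mean of the 9 B cell markers was 6.20 to 6.46 at 0 h and 6.18 to 6.24 at 18 h, and the part of B cells in these falls was not tested. Dntt, the terminal transferase that adds bases to receptor genes in lymphoid precursors, fell by 2.41 (SE 0.20), and Dtx1, a regulator of Notch signalling, fell by 2.11 (SE 0.19). Gstk1 (-2.44), Ctla2a (-2.29), Ly96 (-2.23), the partner of TLR4, Serpinb1a (-2.11) and Abcg3 (-2.10) complete the named falls together with H2ac4 (-2.57). Ctla2a, Serpinb1a and H2ac4 were near background at 18 h, so their falls may be larger. For Clec12a, H2ac4, Gstk1, Dntt, Ctla2a, Gzma, Ly96 and Serpinb1a replicate 1 was the highest array at 0 h. The 15 named rises and 15 named falls were called in every alternative run.

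The largest fall of all belongs to a row named Kcnma1 and is uncertain. It read 12.55, 12.71 and 12.72 at 0 h and 6.42, 6.60 and 6.35 at 18 h, and fell by 6.20 (SE 0.13) or 73.7-fold. At 96 h its mean was 11.56. In memory cells it was 6.37 at 0 h and 5.93 at 18 h. A further row of the same gene, which lists RefSeq transcripts of this potassium channel, read 5.70 at 0 h and 5.54 at 18 h, and the row that fell lists none. The fall therefore belongs to what that row detects and is not assigned to the channel gene.

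Rows named for miRNA genes detect the primary or precursor transcript and not the mature miRNA. Of 261 such autosomal rows 41 rose (15.7%, against 17.3% of all autosomal genes) and 18 fell (6.90%, against 16.7%). A rise of at least 1 was called for 10 (3.83%, against 3.57%) and a fall of that size for 2 (0.766%, against 2.18%). Near background at both times were 121. The examples below were chosen after their values were seen. Mir155, whose host gene is induced by antigen receptor signals, read 5.80, 5.96 and 6.31 at 0 h and 9.36, 9.40 and 9.33 at 18 h, a rise of 3.34 (SE 0.17) with an adjusted p = 4.21e-15, the largest among them. Members of the miR-17 cluster on chromosome 14 rose with it. Mir19b-1 rose by 1.82 (SE 0.20), Mir17 by 1.80 (SE 0.16) and Mir20a by 1.43 (SE 0.17), the latter pair from levels near background, and their host Mir17hg by 1.39 (SE 0.20). Mir17 read 5.11, 5.73 and 6.07 at 0 h and 7.45, 7.43 and 7.44 at 18 h. Mir15b fell by 1.51 (SE 0.36) and Mir423 fell by 1.44 (SE 0.13). The mature products these precursors give are shown with the seed, bases 2 to 8, in capitals (RefSeq, GRCm38.p6), because the seed decides which messages a miRNA binds.
miR-155-5p: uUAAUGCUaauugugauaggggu
miR-17-5p: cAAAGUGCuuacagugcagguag
miR-20a-5p: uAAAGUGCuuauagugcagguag
miR-19b-3p: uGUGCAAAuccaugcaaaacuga
miR-15b-5p: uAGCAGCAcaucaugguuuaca
Of these, miR-17-5p and miR-20a-5p share the seed AAAGUGC and the others each have their own. On the plus strand of chromosome 14 miR-17-5p lies at chr14:115043684-115043706, miR-20a-5p at chr14:115044183-115044205 and miR-19b-3p at chr14:115044358-115044380. On chromosome 16 miR-155-5p lies at chr16:84714143-84714165 and on chromosome 3 miR-15b-5p at chr3:69009775-69009796.

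The naive response was then set against that of memory cells to the same stimulation, with a test of the difference between both responses. They share no arrays. The responses differed for 5561 of 19106 genes (29.1%), the naive one being the higher for 2841 (14.9%) and the lower for 2720 (14.2%). With each array centred on its median these were 2257 and 3239. Il2ra changed by 4.49 in naive and by 0.36 in memory cells, a difference of 4.13 (SE 0.11, adjusted p = 3.47e-20). Memory cells were at 12.46 before stimulation, where naive cells were at 8.04. Gzmb behaved alike, with 4.60 in naive and 0.37 in memory cells, a difference of 4.23 (SE 0.11). Irf4, Irf8, Tnfrsf9, Slc7a5 and Myc also rose more in naive cells, by 2.90, 2.40, 1.77, 1.48 and 0.81. Each of these started higher in memory cells, with 0 h means of 9.16, 10.46, 10.60, 11.36 and 11.29. In naive cells these were 6.26, 7.53, 8.14, 9.31 and 10.37. At 18 h naive cells did not stand above memory cells, with 11.65, 11.46, 11.84, 11.80 and 12.52. Memory cells were then at 11.65, 11.99, 12.52, 12.38 and 12.64. The response of Prf1 was smaller in naive cells, with 0.08 against 2.26, a difference of -2.18 (SE 0.20). Il2 was near background at 0 h in naive (5.04) and memory cells (5.22), so the size of its response is not known in either. At 18 h its mean was 7.38 in naive and 9.98 in memory cells.

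**Figure D5:**
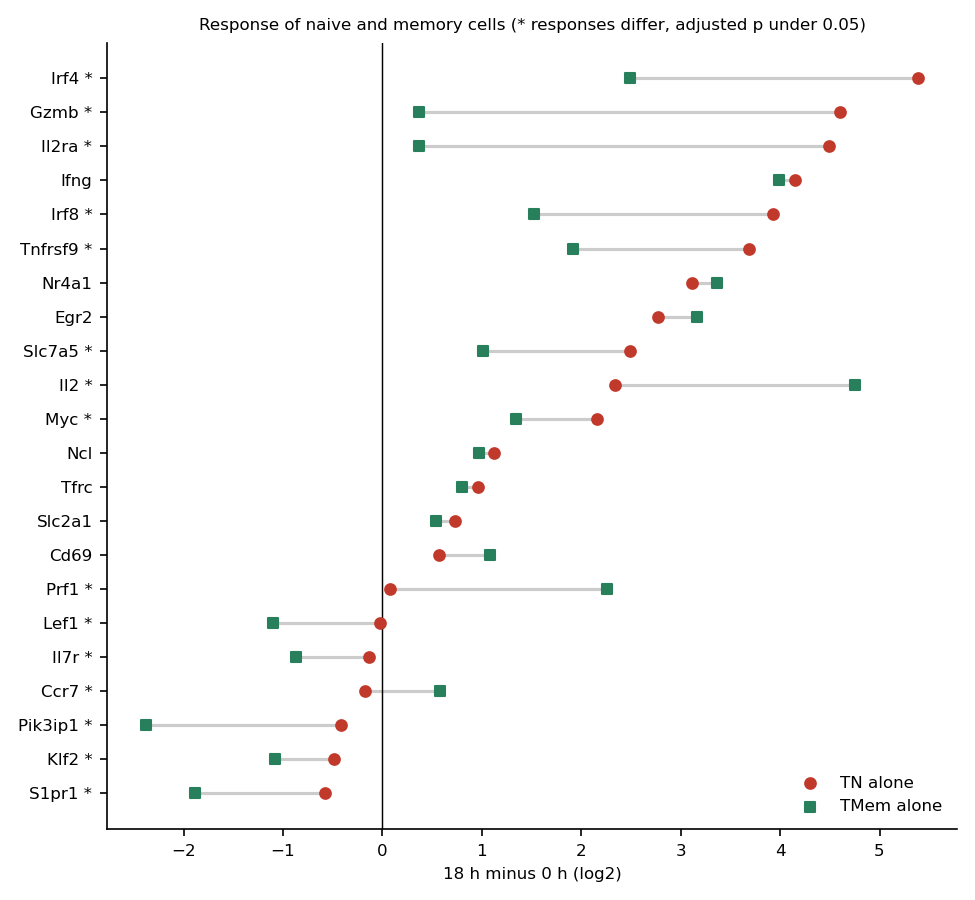
Difference between 18 h and 0 h (log2, horizontal axis) of 22 genes in naive cells (red dots) and memory cells (green squares), each a difference of means of 3 arrays, with a star where the responses differed at an adjusted p under 0.05. Gzmb and Il2ra differ most, Il2 starts near background in both cell types, and Ifng, Nr4a1, Egr2, Ncl, Tfrc, Slc2a1 and Cd69 carry no star.

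Several genes of the naive state gave lower values in the memory response. Pik3ip1 changed by -0.42 in naive and -2.38 in memory cells, a difference of 1.96 (SE 0.14), and S1pr1, Lef1, Il7r and Klf2 gave differences of 1.30, 1.08, 0.73 and 0.59. That of Il7r was not called without replicate 1 of the naive 0 h arrays (0.52, adjusted p = 0.0656), without replicate 1 of the memory 0 h arrays (0.51, adjusted p = 0.0626) or with only the groups compared (0.73, adjusted p = 0.0952). That of Klf2 was not called with weighted arrays (0.27, adjusted p = 0.0981), with only the groups compared or with each array centred on its median. For Ccr7 the difference was -0.76 (SE 0.17). Ifng changed by 4.14 and 3.99, a difference of 0.16 (SE 0.63, adjusted p = 0.894), and the SD of the memory arrays at 0 h was 1.89. Without replicate 1 of the memory arrays at 0 h the difference for Ifng was -0.93 (adjusted p = 0.000975), and it was 1.87 (adjusted p = 0.00157) with weighted arrays, so its direction was not settled. No difference was called for Nr4a1 (-0.25), Egr2 (-0.39), Cd69 (-0.51), Tfrc (0.16), Ncl (0.16) or Slc2a1 (0.19). Without memory replicate 1 at 0 h those of Egr2 (-0.73, adjusted p = 0.00107) and Nr4a1 (-0.53, adjusted p = 0.00168) were called, and without memory replicate 3 at 0 h that of Slc2a1 (0.41, adjusted p = 0.0229). That of Cd69 was called in 6 alternatives, with values from -0.75 (without memory replicate 3 at 0 h, adjusted p = 0.00113) to -0.36 (weighted arrays, adjusted p = 0.028). The others were the filter on low values and the fits without naive replicate 2 or 3 at 0 h or naive replicate 3 at 18 h.

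Several gene lists were called in one direction when both responses were compared. For 16 of 18 interferon gamma response genes the naive response was the higher and for 0 the lower, with medians of 0.84 in naive and -0.81 in memory cells. For 29 of 35 mitosis genes it was the higher, with medians of -0.14 and -1.08. Of these 35, 14 were near background in naive cells at 0 h or 18 h, where a fall could not be measured in full, and all 14 are among the 29. Of the other 21 it was the higher for 15. It was the lower for 53 of 72 mitochondrial ribosomal proteins (medians -0.18 and 0.45), and for 37 without replicate 1 of the naive 0 h arrays. It was the lower for 33 of 52 cytosolic ribosomal proteins (medians -0.27 and 0.08; 28 without that array) and for 23 of 46 ribosome assembly genes (medians 0.91 and 1.33; 22 without it). These counts also depended on the memory 0 h arrays. Without memory replicate 1, 2 or 3 at 0 h they were 54, 43 and 50 for mitochondrial ribosomal proteins. They were 27, 28 and 37 for cytosolic ribosomal proteins and 23, 18 and 23 for ribosome assembly genes. Ribosome assembly genes rose in naive cells, and the rise was smaller than in memory cells for the 23 called with all arrays. Of the 26 histone genes 19 had the lower response in naive cells, with a memory median of -0.17.

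At 96 h many of the genes described above stood at other levels. The comparison of 96 h with 18 h shares the 18 h arrays with that of 18 h with 0 h, so values are given side by side. Between 96 h and 18 h 4708 genes (24.6%) were called, 2183 higher (11.4%) and 2525 lower (13.2%) at 96 h, or 1740 and 3161 with each array centred on its median. Nr4a3 differed by -2.02 (SE 0.18), Egr2 by -3.00, Xcl1 by -3.08, Irf4 by -1.87 and Il2, to a level near background, by -2.36, after differences at 18 h of 4.40, 2.77, 5.54, 5.39 and 2.34. Of 17 EGR, NR4A and AP-1 factors 14 were lower and 1 higher at 96 h. Il2ra read 12.59, 12.64 and 12.58 at 96 h, a difference of 0.07 that was not called, and Gzmb read 12.90, 12.97 and 12.97, higher by 1.42 (SE 0.08). Gzma read 9.14, 9.05 and 9.39, higher by 3.80 (SE 0.21), and Prf1 differed by -1.88 (SE 0.14).

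Division genes rose after 18 h. All 35 mitosis and G2 genes and 46 of 48 S phase genes were higher at 96 h, with medians of 3.79 and 1.65, and 0 were lower. Mki67 read 11.17, 11.27 and 11.20 at 96 h. Ribosome assembly genes were lower at 96 h for 36 of 46, with a list mean of 9.96, 10.09 and 10.05, still above that at 0 h. Respiratory chain genes were higher for 19 of 65 and lower for 0. Of 44 genes of the naive and resting state 29 were lower and 6 higher. Il7r differed by -1.32 (SE 0.16) and Lef1 by -0.79 (SE 0.09) between 96 h and 18 h, where neither had been called between 18 h and 0 h.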

How the data were processed

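RNA of sorted CD8+ T cells was amplified and hybridised to Affymetrix arrays, per the labels' protocols. The authors deposited 1 log2 value per probe set and array, and the submitters' processing notes name RMA and Partek without version, order or role. Arrays limit precision by their number, which was 3 per group. Of 35556 probe set rows, 21789 had 1 gene symbol, 1621 had several and 12146 had none, and rows with several symbols or none were left out. Gene symbols were updated through the platform annotation's gene numbers for 21698 rows. For the 999 genes with several rows the row with the highest mean was used, which gave 19938 genes, 19106 of them on autosomes.

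The values were fitted with limma 3.58.1 in R 4.3.3 (lmFit and eBayes) over all 30 arrays in 10 groups, with 20 residual degrees of freedom. P-values were 2-sided and adjusted over all 19938 genes with the Benjamini-Hochberg method, and a gene was called at an adjusted p under 0.05. The same model gave the difference between the responses of naive and memory cells and the comparison of 96 h with 18 h. On simulated arrays of 19938 genes, 67, 67 and 66 genes were given changes of 0.5, 1 and 2. The fit of 18 h against 0 h recovered 67.2%, 95.5% and 100% of these, and 4.89% of calls were false. Noise was drawn independently for each array, and far fewer genes changed than were called in the data. The false share therefore does not describe the calls made here.

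Named genes were the 15 largest called rises and falls without overlap between groups, leaving out gene models without a proper name, miRNA and small RNA genes, receptor segments, and olfactory and vomeronasal receptors, together with members of 53 lists (1281 symbols, of which 1179 matched a gene and 102 did not). The members and lists were chosen with earlier results of these data known. Alternatives were quantile normalization, centring on the median, a filter on low values, a fit of the groups compared alone, a trend with robust estimates, array weights, the mean of a gene's rows, a replicate block and leaving out each array. Promoters and miRNA sequences came from RefSeq (GRCm38.p6).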

Additional observations from a re-analysis of the deposited data

Results flagged for a closer look

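For 15 of the 22 followed genes the response of naive cells from 0 h to 18 h differed from that of memory cells in a test of the difference itself (limma, adjusted p under 0.05), and values are naive minus memory on the log2 scale. The naive response was the higher for Gzmb (4.23), Il2ra (4.13), Irf4 (2.90), Irf8 (2.40), Pik3ip1 (1.96), Tnfrsf9 (1.77), Slc7a5 (1.48), S1pr1 (1.30), Lef1 (1.08), Myc (0.81), Il7r (0.73) and Klf2 (0.59). It was the lower for Prf1 (-2.18) and Ccr7 (-0.76). For Il2 the value was -2.42, but both 0 h means were near background, so neither its size nor its direction is settled. The calls of Il7r and Klf2 were each lost in 3 alternatives.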

How the results depend on the processing

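Between 18 h and 0 h, leaving out 1 array gave 5758 to 6572 called genes, 2985 to 3400 higher and 2710 to 3333 lower. For the difference of the naive and memory responses these ranges were 4926 to 5883, 2470 to 3079 and 2359 to 2963, and for 96 h against 18 h 3980 to 4144, 1841 to 2003 and 1980 to 2303. The other alternatives gave 4972 (only the groups compared) to 8847 (array weights) called genes between 18 h and 0 h. Of 144 such counts, 143 stayed within 1.5 times the reported count and 1 did not, the 3871 genes lower at 96 h than at 18 h with array weights, against 2525. Deviations from the group means correlated at 0.076, -0.007 and -0.013 between same-numbered naive arrays at 18 h and 0 h. For naive arrays at 96 h and 18 h the values were 0.162, -0.063 and 0.051. Same-numbered memory arrays at 18 h and 0 h gave -0.078, 0.326 and 0.216, and differently numbered ones -0.412 to 0.28. With 3 arrays per group such values cannot exclude pairing. With a replicate block 6428 genes were called between 18 h and 0 h, 3286 higher and 3142 lower.

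Of 1484 list counts 1393 stayed within 1.5 times and 91 did not. For mitochondrial ribosomal proteins 20 rose with array weights, and for proteasome subunits 28. Among 1392 values of single genes 10 changed sign, 18 gained and 11 lost a call. Those that changed sign between 18 h and 0 h were Prf1 (-0.0060 with quantile normalization, -0.0162 with array weights, -0.0262 to 0.1358 over fits that left out 1 array) and Lef1 (0.0058 with quantile normalization, -0.1472 to 0.0553 over fits that left out 1 array). For the difference of responses they were Egr2 (0.1699 with array weights) and Ifng (-0.9338 to 0.7402 over fits that left out 1 array, below 0 without naive replicate 2 or memory replicate 1 at 0 h), and between 96 h and 18 h Slc7a5 (-0.0007 with centring on the median). The cause was not tested.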
